A study of Bos taurus with 54 samples.

Results

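Hemoglobin and erythroid genes were followed in calf whole blood as 9 genes. They were taken by symbol without a cut on a measured value, though earlier results of these data were known. The 9 genes were HBB, HBA, HBM, ALAS2, AHSP, SLC4A1, SLC25A37, FECH and BPGM, and each had a row among the 32637 genes listed for every library. Blood came from 15 Holstein male calves in climate controlled rooms, in the morning under thermoneutral conditions (control) and in the evening after 12 h of heat stress (heat), and the RNA was sequenced by a SMART-Seq v4 kit of Takara and a QuantSeq kit of Lexogen, which both read the 3′ ends of polyadenylated transcripts. Leaving out animal 20, whose time differs between the sources, 26 libraries of each kit were compared, 13 control and 13 heat, with 12 animals at both times in each kit and 24 RNA samples sequenced with both kits. Sample numbers fell into a lower range (89 to 120) and a higher range (up to 320), and the comparisons were repeated within each. Each range held its own calves. Figure legends call the ranges runs, a name that the labels do not give. No blood was taken in the evening without heat, so time of day and heat cannot be told apart. Before RNA extraction the blood was treated with an ammonium chloride buffer that lyses red blood cells, and the values below describe what was left after that step.

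Red blood cells are made in the bone marrow, where erythroid precursors fill with hemoglobin, which is built of alpha-like and beta-like globin chains that each hold a heme. Mitochondria of these cells import iron through SLC25A37 (mitoferrin-1), and heme synthesis starts there with ALAS2 and ends with FECH, which inserts the iron. Mature red cells of mammals have no nucleus and keep little RNA, so erythroid transcripts in blood come mainly from reticulocytes, the youngest red cells, which healthy cattle release sparingly. AHSP keeps free alpha globin soluble, SLC4A1 (band 3) is the chloride and bicarbonate exchanger of the red cell membrane, and BPGM makes 2,3-bisphosphoglycerate, a regulator of oxygen binding in many mammals.

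Counts on genes ranged from 5140595 to 20699030 per Takara library and from 4516761 to 58521751 per Lexogen library. The deepest was the Lexogen library of animal 15 after heat, which was loaded at a higher concentration. Levels are given in CPM, a gene's count divided by the library's total count on genes, on the usual scale of this unit. In 3′ sequencing each transcript molecule gives reads from its end only, so CPM was compared between genes without dividing by length. A count of 0 allows up to 3 counts, which was between 0.145 and 0.584 CPM per Takara library and between 0.0513 and 0.664 CPM per Lexogen library, and counts without molecular identifiers cover counting error only. Blood is a mixture, so fewer cells of a type and less RNA per cell cannot be told apart. In 3 of the 9 genes, HBB, ALAS2 and SLC25A37, every library of both kits had counts, and the other 6 were found in part of the libraries or nearly none (HBA and SLC4A1).

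**Figure D1:**
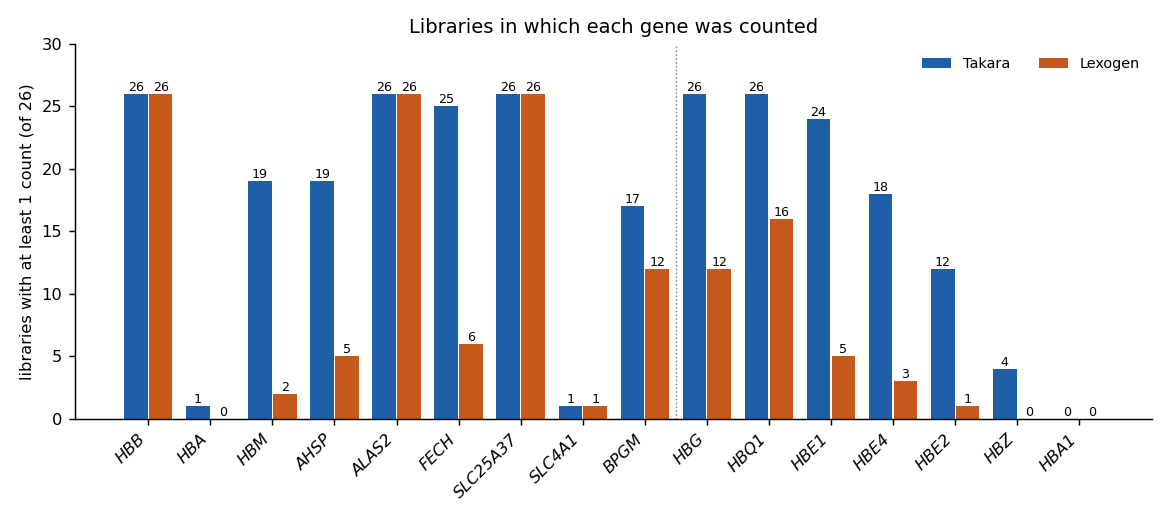
Number of libraries with at least 1 count (y axis, of 26 per kit) for the 9 genes, left of the dotted line, and for the other globin genes, right of it, with Takara in blue and Lexogen in orange. HBB, ALAS2 and SLC25A37 reach 26 in both kits, FECH 25 in Takara and 6 in Lexogen, and HBA and SLC4A1 at most 1.

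HBB, the adult beta globin gene (ARS-UCD2.0 chromosome 15, 48362354 to 48363996), was the most abundant of the 9 genes in every group. In Takara control libraries HBB ranged from 534 to 3288 CPM with a median of 1715, a mean of 1718 ± 949 (SD, n = 13). After heat it ranged from 489 to 2085 CPM with a median of 910, a mean of 1182 ± 543 (SD, n = 13). Lexogen control libraries lay between 129 and 695 CPM with a median of 333, and Lexogen heat libraries between 141 and 638 CPM with a median of 254, with means of 349 ± 173 and 283.2 ± 167 (SD, n = 13 each). In both kits the control and heat libraries overlapped over most of their range, while all but 4 of the Takara libraries stood above the highest Lexogen library.
HBB ranked between 26 and 304 among all genes by count in Takara libraries (median 87.5) and between 150 and 1010 in Lexogen libraries (median 359). It supplied 99.3% of all globin counts in Takara and 99.2% in Lexogen on average. All globin genes together held 0.146% ± 0.0808 (SD, n = 26) of the counts on genes in Takara and 0.0318% ± 0.0170 (SD, n = 26) in Lexogen, with a highest library of 0.330% and 0.0700%. These shares hold uniquely mapped reads only.

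Alpha globin was almost without counts. HBA (chromosome 25, 216496 to 217264) had 1 count in 1 Takara heat library and 0 in the other 51 libraries, and its neighbour HBA1 (219550 to 220318) had 0 counts in all 52. Both genes span 769 bases and lie 2285 bases apart, and near-identical copies of this kind share reads. Only uniquely mapped reads were counted, and a read that fits both copies is not unique. Multimapped reads made up 5.71% to 13.007% of the filtered reads of Takara libraries and 4.23% to 6.44% of Lexogen libraries, and which genes they came from was not analysed here. The level of alpha globin in these samples is therefore not known from the counts. HBM, an alpha-like globin gene on the same cluster (214283 to 215064), had counts in 19 of 26 Takara libraries (87 in all, at most 12 in a library) and in 2 of 26 Lexogen libraries, both control, with 27 and 22 counts.
AHSP, the alpha globin chaperone (chromosome 25, 27543234 to 27544133), was found in 19 of 26 Takara libraries with 86 counts in all and in 5 of 26 Lexogen libraries with 48. In libraries where it was found, it had 4.53 counts on average in Takara and 9.60 in Lexogen.

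The other globin genes with a row were read for context. HBG, annotated as a gamma globin gene of the beta cluster, was counted in all 26 Takara libraries, from 0.697 to 20.1 CPM with a median of 3.19, and in 12 of 26 Lexogen libraries. HBQ1, a theta globin gene, was counted in 26 Takara and 16 Lexogen libraries with means of 2.82 and 0.755 CPM. Its sense counts were 86.8% of its unstranded counts in Takara and 73.0% in Lexogen, so part of them came from the opposite strand. The embryonic genes HBE1, HBE4, HBE2 and HBZ had counts in 24, 18, 12 and 4 Takara libraries and in 5, 3, 1 and 0 Lexogen libraries. The highest of these values was 2.28 CPM, for HBE1 in a Takara library.

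ALAS2, the erythroid form of the enzyme that starts heme synthesis (chromosome X, 92485200 to 92512358), was found in every library. Takara control libraries held 3.85 to 152 CPM with a median of 37.6, and Takara heat libraries 3.95 to 58.5 CPM with a median of 20.01, with means of 42.5 ± 37.7 and 24.9 ± 16.4 (SD, n = 13 each). Lexogen control libraries held 0.131 to 8.08 CPM with a median of 0.838, and Lexogen heat libraries 0.117 to 19.7 CPM with a median of 2.17, with means of 1.83 ± 2.17 and 4.54 ± 5.73 (SD, n = 13 each). The highest Takara control library, of animal 36, stood at 152 CPM and the next at 66.8 CPM, and control and heat overlapped in both kits.
Lexogen counts of ALAS2 were low, with a median of 16 and a lowest library of 1 count, against a median of 275.5 and a lowest of 27 in Takara.
FECH, the last enzyme of heme synthesis (chromosome 24, 56787248 to 56822085), was counted in 25 of 26 Takara libraries with 258 counts in all. Its mean was 0.895 CPM ± 0.580 (SD, n = 26), of which 1.11 ± 0.608 (SD, n = 13) in control and 0.682 ± 0.482 (SD, n = 13) in heat libraries. In Lexogen it was counted in 6 libraries, and 74 of the 120 counts came from the control library of animal 3, which was also the highest Takara library with 35 counts.

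SLC25A37, mitoferrin-1 (chromosome 8, 70711220 to 70718080), is the iron importer of the inner mitochondrial membrane in erythroid cells and is also transcribed in other blood cells. Takara control libraries held 28.8 to 101 CPM with a median of 67.3, and Takara heat libraries 29.9 to 102 CPM with a median of 38.9, with means of 64.7 ± 23.9 and 52.8 ± 26.01 (SD, n = 13 each). Lexogen control libraries held 10.1 to 72.6 CPM with a median of 21.8, and Lexogen heat libraries 11.8 to 54.7 CPM with a median of 29.3, with means of 31.1 ± 18.7 and 30.8 ± 12.8 (SD, n = 13 each). The times shared nearly the same range in both kits. After heat, 9 Takara libraries lay between 29.9 and 45.3 CPM and the other 4 between 80.1 and 102 CPM, with none between, and in control blood 10 lay between 28.8 and 70.2 CPM and 3 between 97.3 and 101 CPM.
SLC4A1 (chromosome 19, 44066247 to 44082437), the major membrane protein of the red cell, had 1 count in 1 Takara library and 22 counts in 1 Lexogen library, and 0 in the other 50. BPGM (chromosome 4, 98321779 to 98353161) was counted in 17 Takara libraries with 60 counts and in 12 Lexogen libraries with 91, at most 9 and 19 in a library, and 81.7% of its Takara counts were on the sense strand. A single library decided the Lexogen mean of SLC4A1, so no difference was read from it.

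The order of mean CPM in Takara was HBB, SLC25A37, ALAS2, FECH, HBM, AHSP, BPGM, SLC4A1 and HBA, and HBM and AHSP, at 0.342 ± 0.439 and 0.314 ± 0.372 (SD, n = 26), did not differ beyond their spread. SLC25A37 exceeded ALAS2 by mean in Takara (58.8 ± 25.2 against 33.7 ± 29.8 CPM, SD, n = 26), with overlapping ranges. In Lexogen SLC25A37 stood at 30.99 ± 15.7 and ALAS2 at 3.19 ± 4.47 CPM (SD, n = 26). In Lexogen HBA had no count and the other 5 genes of few counts had means of 0.454 CPM or less, each with an SD larger than its mean, so their order was not read.

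**Figure D2:**
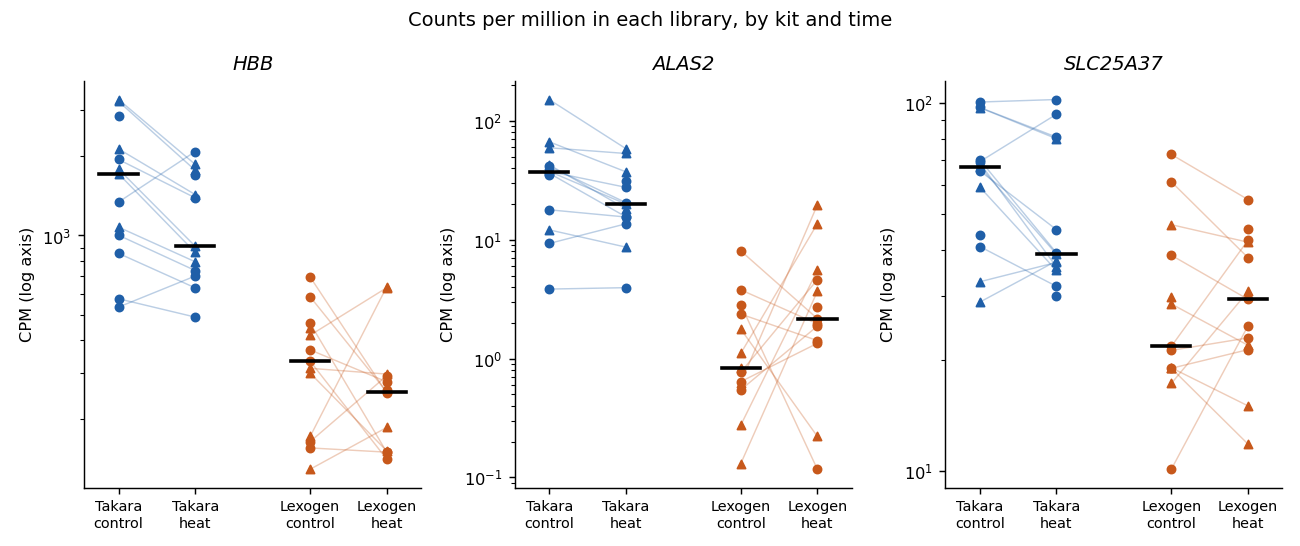
CPM on a log axis for HBB, ALAS2 and SLC25A37 in each library, by kit and time, with circles for the lower and triangles for the higher sample numbers, thin lines joining the libraries of an animal and black bars at the medians. Control and heat overlap in each kit, and the Lexogen points lie lower, most of all for ALAS2.

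The same RNA gave higher levels of HBB, ALAS2 and SLC25A37 with Takara. The kits were compared in the 24 RNA samples with a library of each, with edgeR's quasi-likelihood test, the RNA sample as a block and Benjamini-Hochberg adjustment over all 12447 genes tested. Of those genes, 44.5% were higher with Takara and 27.8% higher with Lexogen at an adjusted p under 0.05, and the median log2 fold change of all genes was 0.41, Takara minus Lexogen. Of the 9 genes, 3 passed the filter on low counts and all 3 were higher with Takara, in a test where 44.5% of genes were. Most of the calves gave an RNA sample at both times, and the fit treated the 24 RNA samples as independent.
HBB was higher with Takara in 24 of 24 RNA samples, with a ratio of CPM between 1.90 and 18.8 and a median of 5.003. Its log2 fold change was 1.93 (SE 0.14, 95% interval 1.64 to 2.22, edgeR adjusted p = 2.27e-13), more than 78.3% of all genes tested. ALAS2 was higher in 24 of 24 with a ratio between 1.90 and 289 and a median of 11.5, and its log2 fold change was 3.45 (SE 0.41, 95% interval 2.63 to 4.28, edgeR adjusted p = 7.61e-09), more than 93.8% of all genes. The highest ratios of ALAS2 were set by Lexogen libraries with 1 count, such as those of animal 16 in control and animal 40 in heat blood, so the upper end of its range is not well measured. Of the 3 genes ALAS2 had the largest fold change.
SLC25A37 was higher in 23 of 24 with a median ratio of 1.90, and its log2 fold change was 0.63 (SE 0.11, 95% interval 0.40 to 0.86, edgeR adjusted p = 9.10e-06), more than 55.1% of all genes. Relative to the median gene it differed by 0.22 on the log2 scale, HBB by 1.52 and ALAS2 by 3.05. With other scalings the median of all genes moved to 0.56 (DESeq2 size factors) and 0.72 (total counts), and the 3 genes moved with it, to 2.08 and 2.24 for HBB, 3.60 and 3.77 for ALAS2 and 0.78 and 0.95 for SLC25A37.

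**Figure D3:**
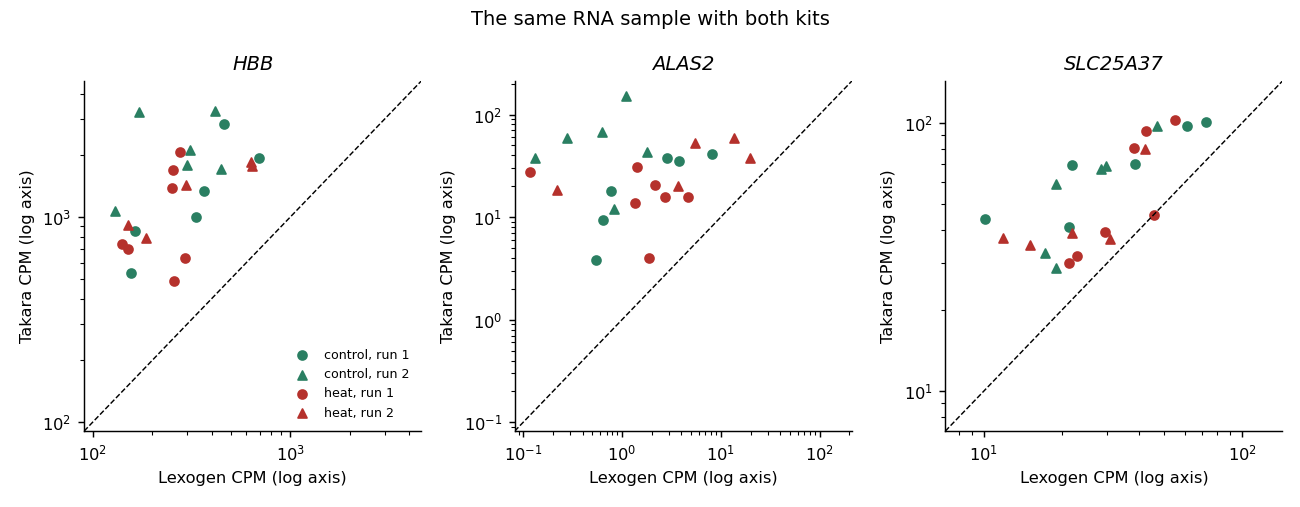
CPM with Takara (y axis) against CPM with Lexogen (x axis), both on log axes, for the RNA samples sequenced with both kits, with control in green and heat in red, circles for the lower (run 1 in the legend) and triangles for the higher (run 2 in the legend) sample numbers, and a dashed line where the kits are equal. All 24 points of HBB and ALAS2 and 23 of 24 of SLC25A37 lie above the line, and those of ALAS2 with the lowest Lexogen values rest on 1 count.

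HBG and HBQ1 also passed the filter and were higher with Takara, by 4.51 (SE 0.74, edgeR adjusted p = 3.22e-06) and 2.76 (SE 0.68, edgeR adjusted p = 6.11e-04) on the log2 scale. For heat in Lexogen neither passed the filter, so they entered the kit comparison through Takara, where they were high. Their difference is thus no separate support for a kit difference. The 6 genes of few counts were not tested in the kit comparison. When every gene with a count was fitted, FECH (log2 fold change 3.65), HBM (4.02) and AHSP (2.88) were also higher with Takara (edgeR adjusted p between 5.71e-04 and 8.85e-03), and BPGM, SLC4A1 and HBA did not pass, at 0.47, -0.22 and 0.12. Those fits rest on few counts per library, and 11623 of all 25169 genes fitted were called. Of 13 genes of heme synthesis, 12 were tested between kits, while 10 passed the filter for heat in Lexogen. Of the 12, 11 were higher with Takara, where 44.5% of all genes tested were. The other 1, the mitochondrial transporter ABCB10, was higher with Lexogen (log2 fold change -0.99, edgeR adjusted p = 8.89e-03), chosen here after its value was seen. The median of the 12 was 2.23, against 0.41 over all genes. Those that failed the Lexogen filter entered through Takara and are part of the count and the median. The count and the median are thus no separate support for a kit difference. TMEM14C, which moves the heme precursor protoporphyrinogen into mitochondria, differed by 0.40, SLC25A39, a mitochondrial glutathione carrier, by 2.25, and ALAD, the second enzyme of the pathway, by 3.00.

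Whether the kits ranked the calves alike was read from log2 CPM over the 12 animals with both kits at a time, as part of 30 relations tested with two-sided permutation tests (100000 resamples) and adjusted together. SLC25A37 was related between kits in control blood (Pearson r = 0.809, permutation p = 0.00155, adjusted p = 0.0122; Spearman rho = 0.916, permutation p = 0.0001, adjusted p = 0.001, n = 12). Without the 2 most extreme Takara values r was 0.885, and within the lower and higher sample numbers it was 0.887 and 0.861 (n = 6 each). In heat blood r was 0.751 (permutation p = 0.00587, adjusted p = 0.0252; rho = 0.797, permutation p = 0.00295, adjusted p = 0.0133, n = 12). It was 0.633 without the 2 most extreme values, 0.850 within the lower sample numbers (n = 7) and 0.723 within the higher (n = 5). The Takara values left a gap at both times, as given above, and r within the libraries on either side of it was not computed.
For HBB the relation between kits did not pass, at r = 0.507 in control (permutation p = 0.0920, adjusted p = 0.173; rho = 0.510, permutation p = 0.0941, adjusted p = 0.183) and 0.592 in heat blood (permutation p = 0.0427, adjusted p = 0.107; rho = 0.503, permutation p = 0.0983, adjusted p = 0.183; n = 12 each). Without the 2 most extreme Takara values these were 0.213 and 0.739. Within the lower and higher sample numbers r of HBB was 0.861 and 0.361 in control blood (n = 6 each). In heat blood it was 0.322 (n = 7) and 0.946 (n = 5, few calves). For ALAS2 r was 0.148 in control (permutation p = 0.650, adjusted p = 0.698; rho = 0.0699, permutation p = 0.836) and 0.299 in heat blood (permutation p = 0.341, adjusted p = 0.426; rho = 0.455, permutation p = 0.140; n = 12 each). Without the 2 most extreme values r of ALAS2 was -0.0263 and 0.254. Within the lower and higher sample numbers it was 0.873 and 0.0834 in control blood, and -0.352 (n = 7) and 0.733 (n = 5) in heat blood. A relation of HBB or ALAS2 between the kits was thus not shown with 12 animals.

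Heat against control was tested in each kit with edgeR's quasi-likelihood test of time alone, as the study modelled it, with adjustment over all genes tested. In Takara 12620 genes were tested, of which 18.4% rose and 10.5% fell after heat, and in Lexogen 11108 genes, of which 5.09% rose and 0.459% fell. The Takara split depended on the scaling, with 2325 genes up and 1321 down by TMM and 1301 up and 2184 down by total counts. HBB, ALAS2 and SLC25A37 were tested in both kits and 0 were called in either, by edgeR or by DESeq2. In these fits without a block, the count at an unadjusted p under 0.05 was 0 in Takara and 1 in Lexogen (ALAS2). With the animal as a block ALAS2 was under 0.05 in Takara (edgeR unadjusted p = 0.0287) and not in Lexogen (edgeR unadjusted p = 0.304).
In Takara HBB differed by -0.32 (heat minus control, log2; SE 0.29, 95% interval -0.92 to 0.28, edgeR adjusted p = 0.419). SLC25A37 differed by -0.09 (SE 0.21, 95% interval -0.51 to 0.34, edgeR adjusted p = 0.786). ALAS2 differed by -0.53 (SE 0.43, 95% interval -1.40 to 0.35, edgeR adjusted p = 0.364). With the animal as a block in the 12 animals with both times ALAS2 differed by -0.36 (SE 0.15, edgeR unadjusted p = 0.0287, adjusted p = 0.0860). The intervals given, all from the fit without a block, leave room for changes of either sign in the 3 genes.
In CPM, HBB was lower after heat in 10 of 12 calves in Takara, with a median ratio of 0.724 (range 0.503 to 1.56), and ALAS2 in 10 of 12, with a median ratio of 0.633 (range 0.386 to 1.46). CPM is relative to all counts on genes, and scaling by total counts shifted the median gene to -0.27, against -0.05 with the TMM normalization of edgeR. With total counts HBB stood at -0.54 (edgeR adjusted p = 0.132) and ALAS2 at -0.76 (edgeR adjusted p = 0.139).
Within the lower sample numbers the Takara values were 0.06 for HBB, -0.10 for ALAS2 and 0.04 for SLC25A37, and within the higher they were -0.61, -0.75 and -0.24, and no call was made in either. By CPM HBB was lower after heat in 6 of 6 calves of the higher range and in 4 of 6 of the lower.

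In Lexogen HBB differed by -0.25 (SE 0.27, edgeR adjusted p = 0.720) and SLC25A37 by 0.08 (SE 0.30, edgeR adjusted p = 0.936). ALAS2 differed by 1.38 (SE 0.67, 95% interval 0.01 to 2.75, unadjusted p = 0.0489, edgeR adjusted p = 0.292), with 7 of 12 calves higher after heat. With the animal as a block it was 1.17 (SE 1.11, unadjusted p = 0.304, edgeR adjusted p = 0.680). The difference between the sample number ranges was not tested. Within the higher sample numbers it was 3.37 and within the lower it was -0.18 (edgeR adjusted p = 0.196 and 0.963). The 2 highest Lexogen libraries of ALAS2 were the heat libraries of animals 14 and 36, at 19.7 and 13.7 CPM, and their control libraries held 0.625 and 1.11 CPM. The same 2 animals had 638 and 633 CPM of HBB after heat and 172 and 417 in control blood with Lexogen. With Takara their HBB was lower after heat, at 1770 and 1863 CPM against 3234 and 3288, and so was their ALAS2, at 37.4 and 58.5 CPM against 66.8 and 152. Both genes thus stood higher after heat with Lexogen and lower with Takara in these 2 calves, and the cause was not tested.
The test of whether the heat effect differed between the kits covered 13354 genes, of which 0% were called by edgeR, with 526 at an unadjusted p under 0.05, and DESeq2 called 9 genes. The difference, Takara minus Lexogen, was -1.67 for ALAS2 (SE 0.73, unadjusted p = 0.0289, edgeR adjusted p = 1), -0.32 for HBB (SE 0.27), -0.30 for SLC25A37 (SE 0.22) and -0.24 for FECH (SE 2.27), each with an adjusted p of 1. Within the higher sample numbers the difference was -3.29 for ALAS2 and -0.74 for HBB (edgeR adjusted p = 0.280 and 0.509), and within the lower it was -0.23 and 0.16.

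**Figure D4:**
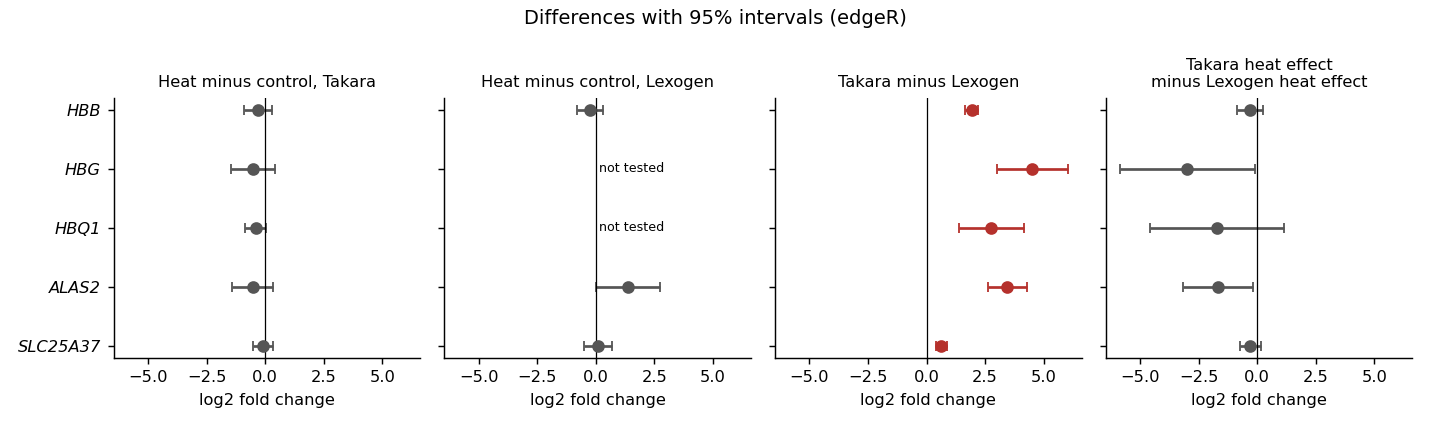
Log2 fold changes (points) with 95% intervals (bars) from edgeR for HBB, HBG, HBQ1, ALAS2 and SLC25A37 in the heat comparisons of each kit, the kit comparison and the difference of the heat effects, with adjusted p under 0.05 in red. All 5 genes are called in the kit comparison and none in the other 3 panels, where HBG and HBQ1 were not tested for heat in Lexogen.

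Of the other globin genes, none that passed the filter was called for heat. In Takara HBG differed by -0.51 (SE 0.46, edgeR adjusted p = 0.414), with 10 of 12 calves lower after heat by CPM, and HBQ1 by -0.40 (SE 0.22, edgeR adjusted p = 0.164). With every gene with a count fitted, FECH, HBM, AHSP, BPGM, SLC4A1 and HBA also gave no call in Takara (edgeR adjusted p between 0.294 and 0.677). In Lexogen that fit called HBM at -4.82 and SLC4A1 at 5.15 (edgeR adjusted p = 0.0230 for both), and the embryonic gene HBE2 at -3.05 (edgeR adjusted p = 0.0245). These rest on 2 libraries with counts for HBM and 1 each for SLC4A1 and HBE2, in a fit that called 3273 of 21596 genes.

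In Takara the levels of HBB, ALAS2 and SLC25A37 were each related between the times over the calves. Over the 12 calves with both times, ALAS2 in control blood was related to ALAS2 after heat (Pearson r = 0.926, permutation p = 2e-05, adjusted p = 0.0003; Spearman rho = 0.923, permutation p = 0.0001, adjusted p = 0.001). Without the 2 most extreme calves r was 0.898, and within the sample number ranges 0.900 and 0.926 (n = 6 each). HBB was related in the same way (r = 0.810, permutation p = 0.00182, adjusted p = 0.0122; rho = 0.832, permutation p = 0.00137, adjusted p = 0.0103), with r = 0.736 without the 2 most extreme calves and 0.795 and 0.931 within the ranges. SLC25A37 was related less closely (r = 0.698, permutation p = 0.0129, adjusted p = 0.0431; rho = 0.762, permutation p = 0.00567, adjusted p = 0.0189). Its r was 0.783 without the 2 most extreme calves and 0.800 and 0.597 within the ranges.
In Lexogen these relations did not pass, at r = 0.0121 for HBB (permutation p = 0.969, adjusted p = 0.969; rho = -0.0140, n = 12) and -0.416 for ALAS2 (permutation p = 0.179, adjusted p = 0.269; rho = -0.406, n = 12). Without the 2 most extreme calves r was -0.0918 and -0.548. Within the lower sample numbers it was 0.159 for HBB and -0.220 for ALAS2 (n = 7), and within the higher 0.232 and -0.326 (n = 5). For SLC25A37 r in Lexogen was 0.625 (permutation p = 0.0298, adjusted p = 0.0813; rho = 0.580, permutation p = 0.0518, adjusted p = 0.141, n = 12), which did not pass either. The difference between the kits in these relations was not tested.
Among calves of the same time the SD of log2 CPM of ALAS2 was 1.22 in Takara, above 95.9% of the 12167 genes with a count in every library and a mean of at least 1 CPM, whose median SD was 0.53. For HBB it was 0.79 and for SLC25A37 0.61. In Lexogen the SD was 1.84 for ALAS2, 0.75 for HBB and 0.73 for SLC25A37, and the median gene had 0.81. HBB and ALAS2 in Takara thus varied more between calves than the median gene, and ALAS2 more than nearly all.

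**Figure D5:**
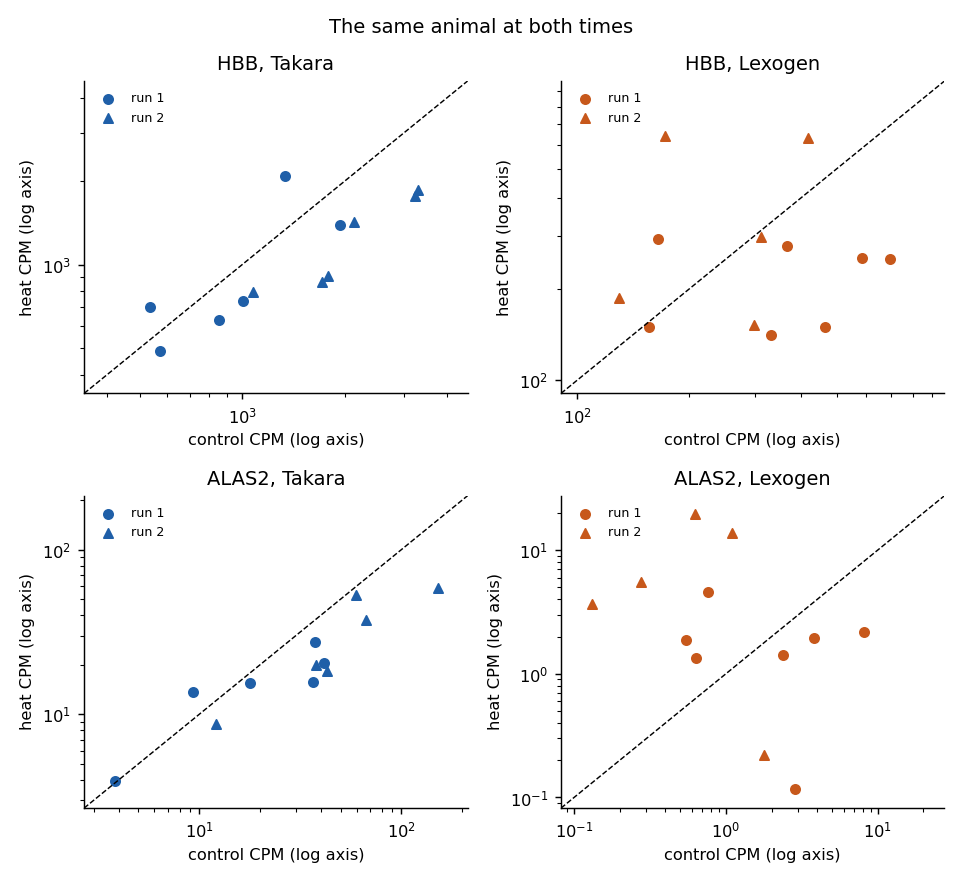
CPM after heat (y axis) against CPM in control blood of the same calf (x axis), on log axes, for HBB and ALAS2 in each kit, with circles for the lower (run 1 in the legend) and triangles for the higher (run 2 in the legend) sample numbers and a dashed line of no change. The 12 Takara points run along the line for both genes, with 10 of 12 below it, and the Lexogen points do not.

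Calves with more HBB tended to have more ALAS2 at the same time. In Takara control blood r was 0.642 (permutation p = 0.0162, adjusted p = 0.0485; rho = 0.703, permutation p = 0.00939, adjusted p = 0.0282, n = 13), and in heat blood 0.533 (permutation p = 0.0588, adjusted p = 0.136; rho = 0.505, permutation p = 0.0803, adjusted p = 0.173, n = 13). In Lexogen r was 0.743 in control (permutation p = 0.00356, adjusted p = 0.0178; rho = 0.775, permutation p = 0.00271, adjusted p = 0.0133, n = 13) and 0.797 in heat blood (permutation p = 0.00204, adjusted p = 0.0122; rho = 0.764, permutation p = 0.00352, adjusted p = 0.0133, n = 13). Without the 2 calves with the most extreme HBB, r was 0.603, 0.595, 0.616 and 0.637 in that order. Within the lower sample numbers it was 0.471, 0.294, 0.812 and 0.574 (n = 7 or 8). Within the higher it was 0.637, 0.849 and 0.651 (n = 6), and 0.868 in Lexogen heat blood (n = 5). The relation was positive in all 4 groups and passed the adjusted test in 3.
The relations of SLC25A37 with HBB and with ALAS2 did not pass in any group. With HBB r was -0.432, -0.135, -0.433 and -0.197, and with ALAS2 -0.515, -0.447, -0.329 and -0.159, in Takara control, Takara heat, Lexogen control and Lexogen heat blood (permutation tests, n = 13, adjusted p between 0.140 and 0.698). The sign was not the same within ranges. Within the higher sample numbers r was 0.467 with HBB and 0.209 with ALAS2 in Takara heat blood (n = 6), and within the lower 0.241 and 0.343 in Lexogen heat blood (n = 8).
SLC25A37 was related to the summed CPM of 8 neutrophil markers in control blood, with r = 0.950 in Takara (permutation p = 1e-05, the smallest that 100000 resamples can give, adjusted p = 0.0003; rho = 0.923, permutation p = 4e-05, adjusted p = 0.001, n = 13) and 0.706 in Lexogen (permutation p = 0.00729, adjusted p = 0.0273; rho = 0.769, permutation p = 0.00355, adjusted p = 0.0133, n = 13). Without the 2 most extreme calves r was 0.886 and 0.596, and within the sample number ranges 0.925 and 0.982 in Takara and 0.859 and 0.789 in Lexogen. In heat blood the relation did not pass, at r = -0.363 in Takara (permutation p = 0.219, adjusted p = 0.313; rho = -0.121, n = 13) and -0.112 in Lexogen (permutation p = 0.712, adjusted p = 0.737; rho = -0.137, n = 13). Leaving out the 2 most extreme calves gave -0.249 and -0.235. Within the lower and higher sample numbers r was -0.804 and 0.0297 in Takara and -0.141 and -0.132 in Lexogen. The difference between the times in this relation was not tested.

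The genes most like HBB over all libraries were ranked by the mean over the kits of Pearson's r of log2 CPM, taken as deviations from the mean of the kit and time, over 26 libraries a kit and 10834 genes. These values are a description, and the libraries of a calf are shared between kits and times. Outside the 9 genes the closest were LOC104974750 (mean r 0.682), BLVRB (0.661), a biliverdin reductase of red cells, MPIG6B (0.640), a receptor of megakaryocytes and platelets, LOC101907575 (0.635) and LOC112444864 (0.633). ALAS2 itself stood at 0.698, above all of them. Closest to ALAS2 were BLVRB (0.726), CALM3 (0.670), a calmodulin, GRAP2 (0.650), an adaptor of T cells and platelets, TAC3 (0.631), a tachykinin precursor, and LOC104974750 (0.627).
For SLC25A37, looked up after its values were seen, the closest were IL1B (0.794), SDS (0.784), CD274 (0.762), IRF1 (0.761) and IFIT2 (0.733). IL1B is an inflammatory cytokine, SDS a serine dehydratase, CD274 an immune checkpoint ligand, and IRF1 and IFIT2 belong to the interferon response. The mean r of SLC25A37 was -0.281 with HBB and -0.342 with ALAS2.

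Other genes of red cell biology were counted by list. Beside these counts, 18.4% of all genes tested rose and 10.5% fell in Takara by TMM, and 5.09% rose and 0.459% fell in Lexogen. Of 12 genes of heme synthesis tested in Takara, 1 rose after heat, TMEM14C (log2 fold change 0.85, edgeR adjusted p = 0.00382), and 4 fell, ALAD (-0.87, edgeR adjusted p = 0.00258) and, named after their values were seen, UROD (-0.35), PPOX (-0.46) and UROS (-0.56), which are enzymes of the pathway (edgeR adjusted p between 0.0184 and 0.0402). The median of the list was -0.31, against -0.05 over all genes, and in Lexogen 0 of 10 were called, with a median of -0.39. These enzymes act in all cells, and only ALAS2 is the erythroid form. SLC25A39 did not pass (-0.27, edgeR adjusted p = 0.339).
Of 13 genes of iron supply tested in Takara, 5 rose and 1 fell, where 18.4% of all genes rose and 10.5% fell. FTL, the light chain of ferritin, rose by 1.28 and SLC40A1, the iron exporter ferroportin, by 1.07 (edgeR adjusted p = 6.79e-04 and 0.00570), and FTH1, the heavy chain, stood at 0.21 (edgeR adjusted p = 0.288). NCOA4, which delivers ferritin for breakdown, rose by 1.47, SLC25A28 (mitoferrin-2), the paralog of SLC25A37, by 0.86 and IREB2, which binds iron responsive RNA elements, by 0.56, and STEAP3, a ferric reductase, fell by 0.47, all named after their values were seen (edgeR adjusted p between 5.96e-04 and 0.0377). The median was 0.15, against -0.05 over all genes. In Lexogen 2 of 13 rose, FTL by 1.20 and NCOA4 by 0.87 (edgeR adjusted p = 0.0391 and 0.0207). In the kit comparison FTL was 4.75 higher with Takara on the log2 scale.
Of 16 red cell membrane genes, 7 were tested in Takara and 1 rose, EPB42, which links band 3 to the membrane skeleton (1.69, edgeR adjusted p = 0.0373), named after its value was seen. In Lexogen EPB42 was counted in 11 libraries and not tested for heat. In Takara its level was low, with means of 1.92 CPM in control and 4.65 CPM in heat libraries. GYPC, EPB41 and XK stood at -0.18, -0.18 and -0.27 and did not pass, and 0 of 4 were called in Lexogen. Of 8 red cell enzymes, 0 of 4 were called in either kit, with PRDX2 at -0.27, BLVRB at -0.15 and CAT at -0.14 in Takara. CA1, the abundant carbonic anhydrase of red cells in many mammals, had 0 counts in all 52 libraries. Of 10 erythroid regulators, 1 of 7 rose in Takara and 1 of 2 in Lexogen, in both NFE2 (1.71 and 1.78, edgeR adjusted p = 7.41e-04 and 0.00206), at a mean of 811 CPM in Takara. GATA1 and TAL1 stood at -0.04 and 0.16 in Takara and did not pass, with Takara means of 16.2 and 13.9 CPM. Which blood cells the NFE2 counts came from was not tested.

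Markers of other blood cells moved between the times in the same libraries, where 18.4% of all genes rose and 10.5% fell in Takara. In Lexogen 5.09% of all genes rose and 0.459% fell. The summed CPM of the 8 neutrophil markers went from 4716 to 21160 in Takara control libraries (median 14561) and from 5571 to 77874 after heat (median 42831), and in Lexogen from 1473 to 7633 (median 4027) and from 2154 to 32267 (median 11227). Of the 8, 7 rose in Takara and 5 in Lexogen, among them S100A12 by 2.29 and 2.002 on the log2 scale, S100A8 by 2.30 and 2.08 and S100A9 by 2.18 and 2.11. Of 5 T cell markers, 3 fell in Takara, CD3D by 0.48, CD3G by 0.45 and CD3E by 0.55, and 0 in Lexogen. Their summed CPM ranged from 834 to 1885 in Takara control (median 1160) and from 358 to 1447 after heat (median 715).
Of 5 B cell markers 0 were called in either kit, with MS4A1 and PAX5 at -0.14 and -0.51 in Takara, and of 4 monocyte markers 1 of 3 tested rose in Takara, CD163 by 1.62, while CD14 at 0.26 and CSF1R at 0.21 did not pass (edgeR adjusted p = 0.425 and 0.594), and 0 were called in Lexogen. Of 6 platelet markers 0 of 4 were called in either kit, with PF4 at -0.17, PPBP at -0.04 and ITGA2B at -0.18 in Takara. Their summed CPM ranged from 1361 to 6275 in Takara control (median 2491) and from 983 to 3110 after heat (median 2081). SLC4A1, a defining gene of red cells, was at or near 0 in all groups but for the 1 Lexogen heat library, and HBB was the one globin gene of high counts. What part the changed mixture of white cells has in the CPM of HBB and ALAS2 was not tested.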

How the data were processed

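RNA from calf blood was sequenced with 2 kits, 27 libraries each. The deposited values are raw gene counts of uniquely mapped reads, which the authors made with STAR 2.7.10b on ARS-UCD2.0 after trimming with Trimmomatic 0.39, and the unstranded counts were used. The 4 rows of unassigned reads were left out. Gene coordinates came from the RefSeq gene table of ARS-UCD2.0.

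CPM used the total counts on genes. Fits used edgeR 4.0.16 in R 4.3.3 (filterByExpr, TMM normalization, quasi-likelihood test, Benjamini-Hochberg adjustment, threshold 0.05), with DESeq2 1.42.0 as an alternative. Heat against control was fitted without a block, and the kit comparison and the difference of heat effects with the RNA sample as a block. The fits were tested on simulated counts without an effect of the animal, so that test does not cover the pairing of calves. Relations used log2 CPM and permutation tests (SciPy 1.17.1). Alternatives were other scalings, no filter, sense counts, the block, animal 20, each range of sample numbers and the library of animal 15. No libraries held identical values. The labels tie libraries to calves. P-values measure the spread between these samples.

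Same-calf libraries deviated together (r over 0.1) in 11 of 12 calves in Takara and in 2 of 12 in Lexogen, with a median r of 0.247 and 0.0179. The heat library most like a calf's control library was its own in 8 of 12 calves in Takara and in 0 of 12 in Lexogen. The pairing comes from the animal in the labels, and in Lexogen it rests on the labels alone. The label of animal 20 says heat and the study's sample table says control, so it was left out of the comparisons. Sample numbers fall in a lower range (89 to 120) and a higher one, which were used as a split.

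The 9 genes and the lists were chosen with earlier results of these data known. Named besides them were all globin genes with a row, up to 3 genes a list with the highest mean CPM in Takara and the 5 genes most like HBB and like ALAS2. The value of 1 gene that this rule names is not reported here. No sequences were used here.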

Additional observations from a re-analysis of the deposited data

How the results depend on the processing

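HBB, ALAS2 and SLC25A37 were higher with Takara in all 10 alternatives of the kit comparison, at 1.70 to 2.24, 2.94 to 3.95 and 0.39 to 0.95 on the log2 scale (edgeR or DESeq2 adjusted p at most 0.0108). The heat comparisons called none of the 3 in any alternative, and the direction turned for HBB in Takara (0.063) and Lexogen (0.31), SLC25A37 in Takara (0.035) and Lexogen (-0.20) and ALAS2 in Lexogen (-0.18) within 1 range of sample numbers, and for SLC25A37 in Lexogen with total counts (-0.013) and without animal 15 after heat (-0.029). The difference of heat effects turned for FECH without the replicate block (1.18) and within the higher sample numbers (0.68), for HBB within the lower (0.16) and for SLC25A37 within the higher (0.042). The cause was not tested. With all genes with a count, 6 of the 9 genes were called between kits, where 11623 of all 25169 genes were called. For heat in Lexogen 2 of the 9 were called, where 3273 of all 21596 were. Those 2, HBM and SLC4A1, had counts in 2 and 1 Lexogen libraries.

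Counts over all genes moved more. The 3646 genes called in Takara became 931 within the higher sample numbers, and 0 with animal 20 as a control (3804 at an unadjusted p under 0.05, and 1653 by DESeq2). The 616 genes called in Lexogen became 3273 without the filter, 1006 with DESeq2, 63 with the replicate block, 402 within the lower sample numbers, 0 within the higher (1275 at an unadjusted p under 0.05, and 322 by DESeq2) and 2 with animal 20 as a control. The difference of heat effects, with 0 calls, gave 9 with DESeq2, an alternative chosen after seeing the data like the Takara fit without animal 15, and 5 without the replicate block. The replicate block changed no call of the 3 genes at the adjusted threshold, with HBB at -0.18 and SLC25A37 at -0.06 in Takara.

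Of the 6 genes of few counts, 1 to 5 had a count in a Takara library and 0 to 3 in a Lexogen library, with 1 in the deepest library, so their differences were not well measured.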
